A study of Mus musculus with 10 samples.

Results

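The p53 pathway was followed through 10 genes, Trp53 itself and 9 genes that p53 switches on, in light-damaged and control mouse retina. They were chosen by symbol in the deposited gene count table, and all 10 were found among its 19999 genes. The table holds 10 libraries of total RNA from retinas of Balb/c mice, an albino strain. In the 5 light damage libraries the animals had been put through a model of light-induced damage, and the other 5 libraries were controls. Vehicle is part of every library name in both groups, and the design text names A74, whose libraries were not analysed here. No genotype beyond the strain, and neither light dose, time after exposure, age nor sex, is given in the labels, nor whether each library came from a separate animal, so p-values reflect variation among these libraries, which may be technical.

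The p53 protein is a transcription factor that is held at low levels by the ubiquitin ligase Mdm2 and accumulates after DNA damage and other stress. Much of that control acts on the protein, so the level of Trp53 RNA need not follow p53 activity, and the RNAs of its targets are the usual readout. Those targets include Cdkn1a, which encodes p21, an inhibitor of cyclin-dependent kinases, and genes of cell death, of metabolism under stress and of feedback on p53. Adult retinal neurons no longer divide, so in this tissue the pathway is studied mainly in the death and survival of photoreceptors and other neurons.

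Promoter windows of 300 bases, 250 before and 50 after each annotated start, were taken from RefSeq on GRCm38.p6, another build than the GRCm39 named in the submitters' processing notes. Of the 10 genes 9 matched, with 11 windows, and Trp53inp1 had no entry. The windows were searched for the p53 half-site, the 10-base consensus of p53 response elements, which reads the same on both strands. A perfect half-site was found in 6 of the 9 genes, Trp53, Cdkn1a, Mdm2, Ccng1, Bax and Aen. The share over all 32851 windows of this length was 8.36%, which is per window and not per gene. Cdkn1a and Aen had 2 windows each, and the 2 Aen windows overlapped and held the same half-site. A full site was here 2 half-sites up to 13 bases apart, with the central 4 bases of each intact and at most 2 mismatches over both. It was found in 2 of the 11 windows, in Cdkn1a and Bax, and in 2.12% of all windows. These windows are shown because they belong to the gene that rose and to a pair of classic targets that did not pass the test. Capitals mark perfect half-sites and full sites.
Cdkn1a, upstream start, chr17:29090729-29091028, plus strand: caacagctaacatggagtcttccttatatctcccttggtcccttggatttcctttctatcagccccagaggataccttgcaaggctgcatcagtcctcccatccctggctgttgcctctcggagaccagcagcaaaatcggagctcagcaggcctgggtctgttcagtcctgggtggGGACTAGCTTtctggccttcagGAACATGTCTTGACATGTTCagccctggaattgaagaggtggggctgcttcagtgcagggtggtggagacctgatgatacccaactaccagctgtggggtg
Bax, chr7:45466849-45467148, minus strand: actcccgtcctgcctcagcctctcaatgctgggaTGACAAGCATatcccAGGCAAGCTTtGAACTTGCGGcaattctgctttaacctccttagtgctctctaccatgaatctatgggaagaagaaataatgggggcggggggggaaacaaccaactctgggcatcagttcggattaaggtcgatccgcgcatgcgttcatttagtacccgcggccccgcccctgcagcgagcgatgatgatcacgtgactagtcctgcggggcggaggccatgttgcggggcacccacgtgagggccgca
Mdm2, chr10:117710709-117711008, minus strand: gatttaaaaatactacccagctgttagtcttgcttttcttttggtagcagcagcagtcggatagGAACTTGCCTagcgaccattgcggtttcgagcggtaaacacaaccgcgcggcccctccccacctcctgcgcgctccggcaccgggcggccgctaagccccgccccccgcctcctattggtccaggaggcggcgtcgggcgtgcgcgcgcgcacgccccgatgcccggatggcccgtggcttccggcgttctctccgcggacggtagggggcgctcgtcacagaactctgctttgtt
In the Cdkn1a window, the half-site GAACATGTCT directly abuts TGACATGTTC, which has 1 mismatch, and together they span positions -51 to -32 from the start. The same half-site also pairs with GGACTAGCTT, 12 bases before it, with 0 mismatches. The window of the second Cdkn1a start, 2790 bases downstream, holds no half-site. In the Bax window the best match, AGGCAAGCTT followed after 1 base by GAACTTGCGG, has 2 mismatches and spans positions -201 to -181; another match overlaps it. Matches are letters in a window and say nothing about binding in these retinas, and the gene counts do not separate the Cdkn1a starts.

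Sequencing depth was 17900227 to 20337329 total counts per light damage library and 14652535 to 20699236 per control library. Light damage replicates 1 and 2 stood apart. They held 17174 and 20414 counts of Xist, the RNA of the inactive X chromosome, against 1 to 9 in every other library, and the summed level of 6 tested lens markers was 6642 and 3528 CPM there, 16.0 to 99.5 CPM in the other 3 light damage libraries, and 1.36 to 26.9 CPM in controls. CPM is the count scaled to a common library size after TMM scaling. Calls are therefore also given without those 2 libraries. Retinal markers were high in both groups, with 6 rod markers summing to between 52484 and 74154 CPM in light damage and between 56696 and 93557 CPM in control. In whole tissue, fewer cells of a type and less RNA per cell cannot be told apart.

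Of the 10 genes, 9 had enough counts to be tested, and Cdkn1a was the one that passed. It was higher in light-damaged retina, 5.14 ± 0.691 CPM against 3.08 ± 0.581 CPM in control (SD, n = 5 each), a 1.67-fold difference. The other 8, Trp53, Mdm2, Ccng1, Bax, Phlda3, Sesn2, Trp53inp1 and Aen, did not pass, which does not show that they were unchanged. Their log2 fold changes lay between -0.14 and 0.25, with 6 of all 9 tested genes above 0 and a median of 0.055, against a median of 0.0016 over all genes. One call in 9 genes stands beside 5.32% of the 16852 tested genes called higher in light damage. Of the 9, 0 were called lower, beside 7.85% of all genes. A call is an adjusted p under 0.05 in the edgeR quasi-likelihood test. An unadjusted p under 0.05 was reached by Cdkn1a alone of the 9, and by 5110 of all 16852 tested genes. DESeq2 also called 1 of the 9 higher and 0 lower, and over all genes 1309 higher and 1602 lower. Scaling by library totals alone gave 1147 genes higher and 912 lower, against 896 and 1323 with TMM scaling.

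**Figure D1:**
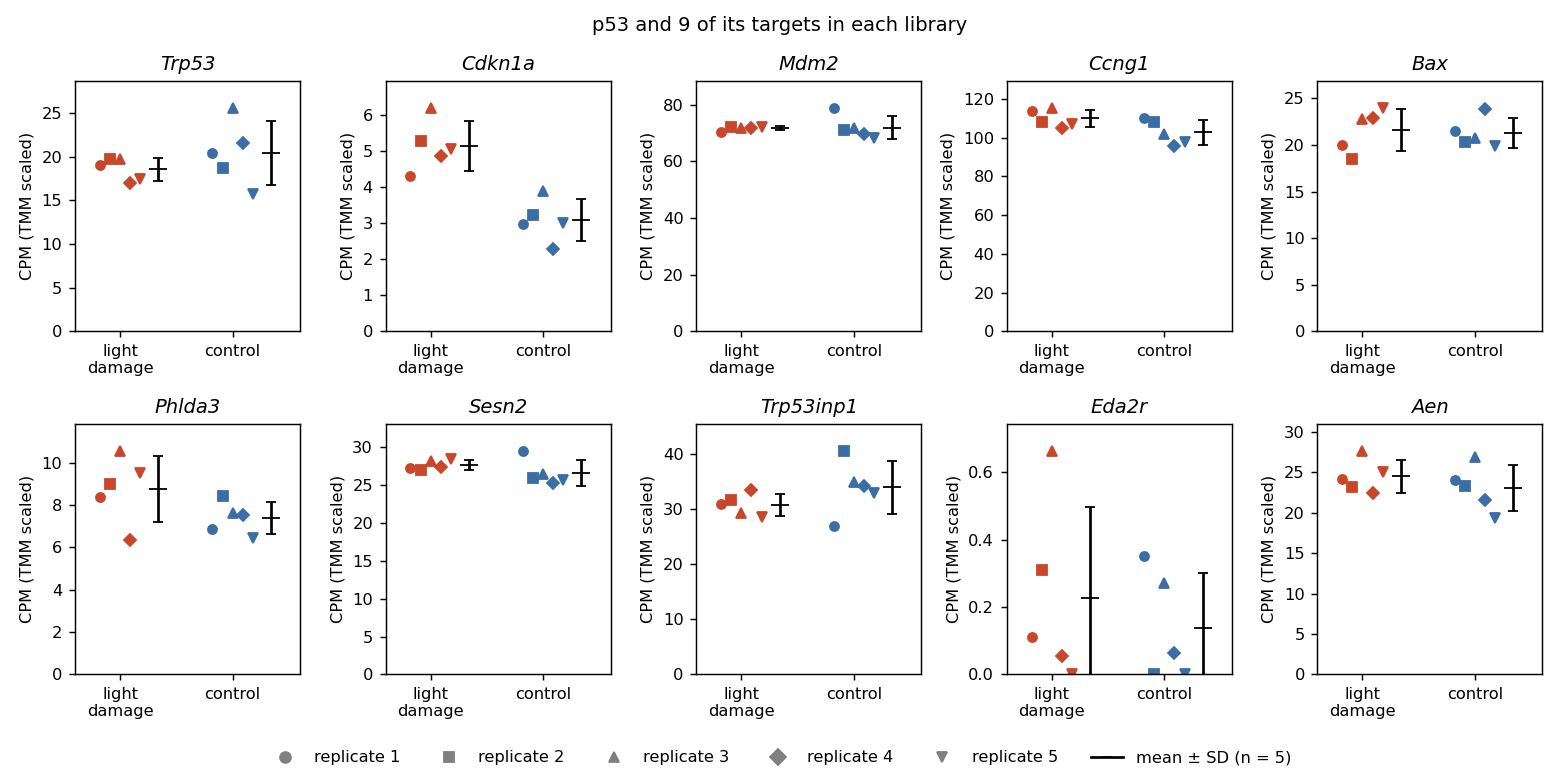
Level of each of the 10 genes in CPM (vertical axes from 0) in 5 light damage and 5 control libraries, one symbol per replicate number, with the mean and SD at the side of each group. Cdkn1a lies between 4.31 and 6.20 CPM in light damage, above every control library, while the groups of the other 9 genes overlap. The lower SD bars of Eda2r end at the axis.

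Cdkn1a (ENSMUSG00000023067, chromosome 17) had 77, 102, 131, 88 and 91 counts in light damage replicates 1 to 5, and 59, 50, 72, 36 and 44 counts in control replicates 1 to 5. Scaled, these were 4.31, 5.27, 6.20, 4.87 and 5.07 CPM in light damage and 2.97, 3.22, 3.91, 2.28 and 3.02 CPM in control. Every light damage library exceeded every control library, as in 4.31% of all tested genes, with replicate 3 highest in each group. Of the 9 genes 0 lay wholly below the controls, as 5.48% of all genes did. The log2 fold change was 0.74 (SE 0.16, 95% interval 0.40 to 1.08, edgeR quasi-likelihood adjusted p = 0.00889, Benjamini-Hochberg over every tested gene). The call held in each fit that left out 1 library, with log2 fold changes between 0.66 and 0.84. Without light damage replicates 1 and 2 it was 0.81 (edgeR quasi-likelihood adjusted p = 0.0424), in a comparison that called 0.782% of genes higher. At these counts the sampling of reads alone gives a coefficient of variation of 10.3% in light damage and 14.2% in control, where 13.4% and 18.9% were observed.

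Some sums of retinal cell markers were extreme in the same libraries as Cdkn1a, and no correlation with Cdkn1a was computed. Summed rod markers were lowest within each group in replicate 3, with 52484 CPM in light damage, against 56696 CPM in control. Cdkn1a was highest in these same libraries. Control replicate 4 had the highest rod sum, 93557 CPM, and the lowest Cdkn1a. In light damage the 2 did not match in this way. The rod sum was highest in replicate 4, at 74154 CPM, and Cdkn1a was lowest in replicate 1. Of 6 rod markers 1, Sag, rose and 5 did not pass, and without light damage replicates 1 and 2 there were 0 calls. Log2 fold changes were below 0 for 4 of the 6, with a median of -0.13. With the replicate block 1 rod marker was called higher and 2 lower. Over all genes 5.32% were called higher and 7.85% lower in the main fit. With the rod sum as a covariate, a fit chosen after seeing the data, the log2 fold change of Cdkn1a was 0.57 (edgeR quasi-likelihood adjusted p = 0.0221). Summed markers of amacrine cells did not overlap between the groups, 583 to 651 CPM in light damage, against 436 to 563 CPM in control. Of 4 markers 2 rose, Gad1 and Slc32a1, of which 1 was called without light damage replicates 1 and 2. In light damage the amacrine sum was highest in replicate 3, like Cdkn1a, and lowest in replicate 2, unlike Cdkn1a. In control the amacrine sum was lowest in replicate 4, like Cdkn1a, and highest in replicate 5, unlike Cdkn1a. With that sum as a covariate, also chosen after seeing the data, the log2 fold change of Cdkn1a was 0.41 and the call was lost (edgeR quasi-likelihood adjusted p = 0.535). In that fit 0 genes were called higher and 3 lower over the whole table, so amacrine marker level and light damage cannot be told apart here.

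Other marker sums overlapped between the groups. Those of 5 Müller glial markers lay between 3373 and 4768 CPM in light damage and between 2295 and 3980 CPM in control. Of these 5 markers 3 rose. The Müller sum was highest in light damage replicate 1, which had the lowest Cdkn1a of its group. It was lowest in control replicate 3, which had the highest Cdkn1a of its group. Sums of 8 microglial and macrophage markers lay between 58.4 and 112 CPM in light damage and between 49.9 and 61.1 CPM in control. They were highest in light damage replicate 3, and 1 of the 8 markers, Csf1r, rose. All 8 had log2 fold changes above 0, with a median of 0.49, and 0.41 without light damage replicates 1 and 2. An unadjusted p under 0.05 was reached by 4 of the 8, and DESeq2 called 2 higher. Of 5 bipolar markers 2 rose, and of 4 cone markers 1 fell. Of 4 ganglion cell, 4 endothelial and 8 ciliary body and pigment epithelium markers 0 passed. An unadjusted p under 0.05 was reached by 0, 1 and 1 of them, and DESeq2 calls numbered 0, 1 and 1. Over all genes 5.32% were called higher and 7.85% lower, and 5110 of 16852 had an unadjusted p under 0.05. Of the lens markers 3 of 6 rose, and Cdkn1a in the 2 libraries with most lens RNA, at 4.31 and 5.27 CPM, lay within or below the 4.87 to 6.20 CPM of the other 3 light damage libraries. Without light damage replicates 1 and 2 the edgeR calls were 1 of 5 Müller glial, 2 of 5 bipolar and 0 of 8 microglial markers higher. In that comparison 0 of 6 lens markers were higher and 0 of 4 cone markers lower, beside 0.782% of all genes higher and 1.55% lower. The part of these cell types in the Cdkn1a result was otherwise not tested.

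The same counts can be set against the other genes of a library, which needs no scaling between libraries. This ratio was chosen after the values were seen, and its denominators differed little between the groups, so it restates the Cdkn1a difference and is no further support for it. Per 100 counts of Mdm2 there were 6.11, 7.31, 8.65, 6.78 and 7.04 counts of Cdkn1a in light damage replicates 1 to 5, and 3.76, 4.53, 5.43, 3.27 and 4.43 in control replicates 1 to 5. Each light damage library lay above each control library. Per 1000 counts of the other 8 tested genes together, Cdkn1a had 16.4 ± 1.94 counts in light damage, against 10.003 ± 1.73 in control (SD, n = 5 each). Here too the groups did not overlap, with 13.7 the lowest value in light damage and 12.4 the highest in control.

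**Figure D2:**
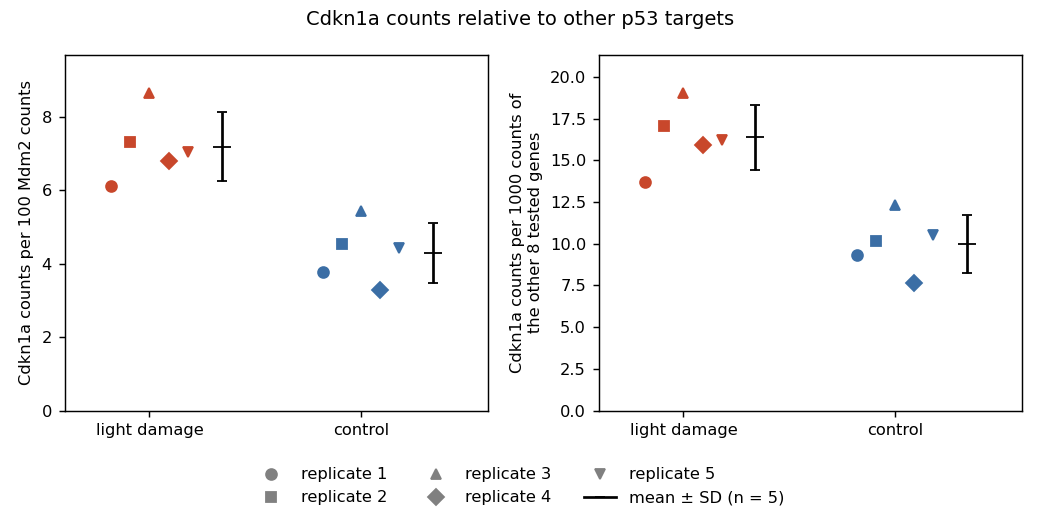
Cdkn1a counts per 100 Mdm2 counts (left) and per 1000 counts of the other 8 tested genes (right), for each library, with mean and SD per group. On both axes, which start at 0, all 5 light damage libraries lie above all 5 controls, and replicate 3 is highest in each group.

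Trp53 (ENSMUSG00000059552, chromosome 11), which encodes p53, had 19.0, 19.8, 19.8, 16.9 and 17.4 CPM in light damage replicates 1 to 5, and 20.4, 18.7, 25.6, 21.6 and 15.7 CPM in control replicates 1 to 5. The control range enclosed every light damage library. Its log2 fold change was -0.14 (SE 0.11, 95% interval -0.36 to 0.088, edgeR quasi-likelihood adjusted p = 0.405). Mdm2 (ENSMUSG00000020184, chromosome 10), both a target of p53 and the ligase that marks it for degradation, had 70.5, 72.1, 71.7, 71.9 and 72.0 CPM in light damage and 78.8, 70.9, 71.9, 69.8 and 68.1 CPM in control. On the log2 scale the difference was -0.0061 (SE 0.052, edgeR quasi-likelihood adjusted p = 0.953). The 95% interval of that difference, 0.922-fold to 1.07-fold, was the narrowest of the 9 genes, and it lay below the 1.32-fold lower bound for Cdkn1a.

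Ccng1 (ENSMUSG00000020326, chromosome 11) encodes cyclin G1, a regulator of Mdm2 through a protein phosphatase, and was the most abundant of the 10. It had 114, 108, 115, 105 and 107 CPM in light damage replicates 1 to 5, and 110, 108, 102, 95.5 and 97.9 CPM in control replicates 1 to 5. Means were 110 ± 4.46 CPM in light damage, against 103 ± 6.42 CPM in control (SD, n = 5 each), and the ranges overlapped. The log2 fold change was 0.098 (95% interval -0.020 to 0.22, edgeR quasi-likelihood adjusted p = 0.248). Phlda3 (ENSMUSG00000041801, chromosome 1), a repressor of the kinase Akt, had 8.39, 8.997, 10.6, 6.37 and 9.52 CPM in light damage and 6.89, 8.42, 7.65, 7.55 and 6.44 CPM in control. In light damage 3 libraries lay above every control and replicate 4 below every control. With a log2 fold change of 0.25 (95% interval -0.034 to 0.53, edgeR quasi-likelihood adjusted p = 0.221) it came next to Cdkn1a in size, and its interval overlaps that of Cdkn1a.

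Neither Bax nor Aen passed. Bax (ENSMUSG00000003873, chromosome 7), which opens pores in the outer mitochondrial membrane, had 20.0, 18.5, 22.8, 22.9 and 24.0 CPM in light damage replicates 1 to 5, and 21.5, 20.3, 20.8, 23.9 and 19.9 CPM in control replicates 1 to 5. The light damage libraries held both the lowest and the highest value, and enclosed every control. Its log2 fold change was 0.022 (95% interval -0.16 to 0.20, edgeR quasi-likelihood adjusted p = 0.889). Aen (ENSMUSG00000030609, chromosome 7), an exonuclease that acts in apoptosis, had 24.2, 23.2, 27.6, 22.4 and 25.0 CPM in light damage and 24.1, 23.3, 27.0, 21.6 and 19.4 CPM in control. Replicate 3 was the highest of its group in both. Its log2 fold change was 0.085 (95% interval -0.10 to 0.27, edgeR quasi-likelihood adjusted p = 0.545).

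Trp53inp1 (ENSMUSG00000028211, chromosome 4), a stress protein that acts in p53-dependent apoptosis and in autophagy, had 30.9, 31.6, 29.2, 33.3 and 28.4 CPM in light damage replicates 1 to 5. Control replicates 1 to 5 had 26.9, 40.4, 34.9, 34.2 and 32.8 CPM, so both the lowest and the highest library were controls. Its log2 fold change was -0.14 (95% interval -0.33 to 0.051, edgeR quasi-likelihood adjusted p = 0.310). Sesn2 (ENSMUSG00000028893, chromosome 4), which restrains the growth kinase complex mTORC1 under stress, had 27.2, 26.9, 28.1, 27.3 and 28.4 CPM in light damage and 29.5, 25.9, 26.5, 25.3 and 25.7 CPM in control. Without control replicate 1, its highest library, the log2 fold change of 0.055 (95% interval -0.081 to 0.19, edgeR quasi-likelihood adjusted p = 0.600) became 0.10. Eda2r (ENSMUSG00000034457, chromosome X), a receptor of the TNF receptor family, had 2, 6, 14, 1 and 0 counts in light damage and 7, 0, 5, 1 and 0 counts in control. It was too low for a test, and a change was not detectable at this depth.

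**Figure D3:**
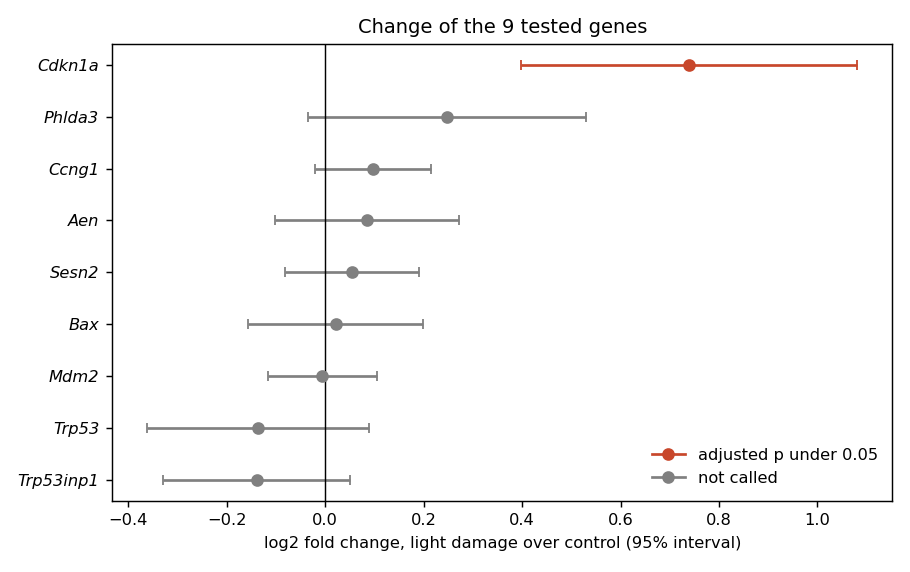
Log2 fold change of light damage over control with its 95% interval for the 9 tested genes, from edgeR's quasi-likelihood test over all genes. The interval of Cdkn1a, 0.40 to 1.08, lies wholly above 0, and the other 8 intervals include 0.

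The genes also differed in level. Divided by transcript length, the level in light damage was highest for Ccng1, 31.3 ± 1.27 CPM per kilobase, followed by Bax at 24.9 ± 2.64 and Mdm2 at 22.8 ± 0.212 CPM per kilobase (SD, n = 5). Trp53 followed with 9.95 ± 0.709 and Sesn2 with 7.94 ± 0.183 CPM per kilobase. Phlda3, Trp53inp1 and Aen lay at 6.11, 5.68 and 4.76 CPM per kilobase, and neighbours in that order overlapped between libraries, as did Bax and Mdm2. Cdkn1a lay apart from its neighbours, with 1.89 ± 0.254 CPM per kilobase in light damage and 1.13 ± 0.214 CPM per kilobase in control, above only Eda2r at 0.048 CPM per kilobase in light damage and 0.029 CPM per kilobase in control. In control the order was the same except that Trp53inp1 stood above Phlda3, with 6.26 and 5.15 CPM per kilobase. So even in light damage Cdkn1a was the least abundant of the 9 tested genes per length.

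Of 44 other p53 targets, 43 were in the table and 40 were tested, and 2 rose, 1 fell and 37 did not pass, beside 5.32% of all genes called higher and 7.85% lower, so the calls do not set the list apart. Their median log2 fold change was -0.0076, with 18 above 0 and 22 below. Ak1, an adenylate kinase, averaged 65.0 ± 3.33 CPM in light damage, against 55.1 ± 3.23 CPM in control (SD, n = 5 each), and no light damage library lay below a control. On the log2 scale the difference was 0.24 (SE 0.059, edgeR quasi-likelihood adjusted p = 0.0153). Ephx1, a microsomal epoxide hydrolase, had 18.3, 19.0, 15.0, 14.3 and 10.2 CPM in light damage replicates 1 to 5, against 7.78 to 11.3 CPM in control, highest in the high-Xist libraries (log2 fold change 0.59, edgeR quasi-likelihood adjusted p = 0.0229; 0.37 without them). Fdxr, the mitochondrial ferredoxin reductase, averaged 14.6 ± 1.63 CPM in light damage, against 18.2 ± 1.55 CPM in control and fell by 0.32 in log2 units (edgeR quasi-likelihood adjusted p = 0.0340).

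Among these targets, 4 genes of death, arrest and repair did not pass. Bbc3, which encodes the death inducer PUMA, had 4.30 ± 1.20 CPM in light damage, against 5.02 ± 0.561 CPM in control, and Gadd45a, a growth arrest gene, averaged 21.6 CPM in light damage, against 21.3 CPM in control. Zmat3, an RNA binding protein induced by p53, averaged 30.7 ± 1.85 CPM in light damage, against 33.7 ± 3.41 CPM in control, and Ddb2, a sensor of DNA damage, 20.5 and 23.1 CPM. These 4 were named after their values were seen. Pmaip1, Ptprv and Dram1 were too low for a test, and Trp53cor1 was not analysed here. Other cyclin-dependent kinase inhibitors did not pass either. Of 5 tested, 0 were called by edgeR's quasi-likelihood test and 0 by DESeq2. An unadjusted p under 0.05 was reached by 2 of the 5, and by 5110 of all 16852 tested genes. The 2 were Cdkn2c, with 18.8 ± 1.67 CPM in light damage, against 22.0 ± 2.01 CPM in control, and Cdkn2d. Cdkn2d had 21.4 ± 1.43 CPM in light damage, against 18.9 ± 0.752 CPM in control (SD, n = 5 each). Cdkn1b, a relative of Cdkn1a that encodes p27 and was named after its values were seen, averaged 108 CPM in light damage, against 105 CPM in control.

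Among 21 tested regulators of p53, 5 fell, 0 rose and 16 did not pass, and the median log2 fold change was -0.10. Over all genes 5.32% were called higher and 7.85% lower. DESeq2 also called 5 lower and 0 higher. An unadjusted p under 0.05 was reached by 8 of the 21, and by 5110 of all 16852 tested genes. The count was less one-sided in other fits, with 2 called higher with the replicate block, with the rod covariate and without control replicate 1, and 1 without control replicate 4. Those called lower numbered 3 without light damage replicate 1. Mdm4, the partner of Mdm2 that blocks p53 at its targets, had 82.7, 96.9, 91.6, 91.6 and 93.6 CPM in light damage replicates 1 to 5 and 94.4, 125, 124, 113 and 124 CPM in control replicates 1 to 5. Its groups overlapped through control replicate 1 and light damage replicate 2, and its log2 fold change was -0.35 (SE 0.074, edgeR quasi-likelihood adjusted p = 0.00803). Ppp1r13l, the inhibitor of p53 known as iASPP, averaged 14.1 ± 1.46 CPM in light damage, against 18.6 ± 1.03 CPM in control, without overlap, and fell by 0.40 on the log2 scale. Ep300 and Crebbp, acetyltransferases that coactivate p53 and many other factors, fell by 0.35 and 0.29, and Trp53bp1, which binds p53 and acts in DNA repair, by 0.23 on the log2 scale. The edgeR quasi-likelihood adjusted p for these 4 lay between 0.00804 and 0.0229. When scaled by library totals alone, 1 regulator was called higher and 3 lower. Trp53bp1 and Crebbp then had log2 fold changes of -0.20 and -0.26, at adjusted p of 0.0544 and 0.0600 in edgeR. So inhibitors and coactivators of p53 were both among the genes that fell.

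The 26 tested cell cycle genes are ones on which p21 acts directly or through the Rb family and its partners. Of these, 2 rose, 2 fell and 22 did not pass, with a median log2 fold change of 0.0052. Over all genes 5.32% were called higher and 7.85% lower, so the calls do not set this list apart. Ccna2, cyclin A2, averaged 21.03 ± 3.03 CPM in light damage, against 29.1 ± 2.12 CPM in control (SD, n = 5 each), without overlap, and fell by 0.47 on the log2 scale. Cenpa, a histone variant of centromeres, averaged 2.91 ± 0.552 CPM in light damage, against 4.50 ± 0.539 CPM in control and fell by 0.63. Ccne1, cyclin E1, rose to 5.28 ± 0.473 CPM in light damage, against 3.60 ± 0.556 CPM in control, a log2 fold change of 0.55, and Pcna, the clamp of DNA polymerase, rose by a log2 fold change of 0.22. The edgeR quasi-likelihood adjusted p for the 4 genes lay between 0.00602 and 0.0253. Mki67, a marker of dividing cells named after its values were seen, had 0.764 ± 0.620 CPM in light damage, against 0.640 ± 0.504 CPM in control.

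**Figure D4:**
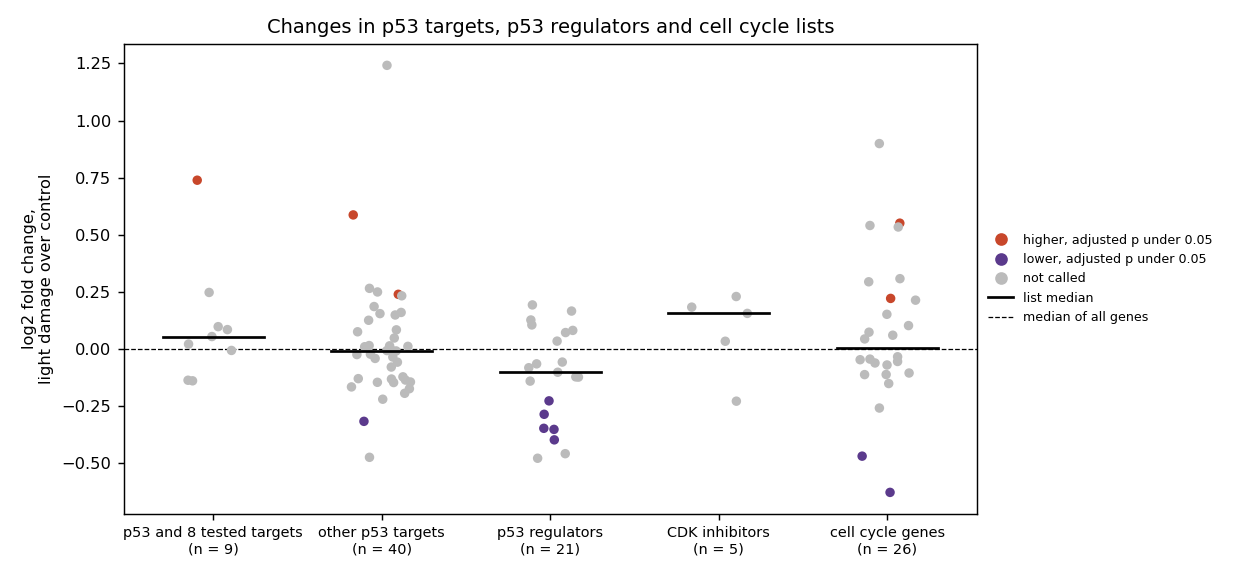
Log2 fold change of light damage over control for every tested gene of 5 lists, coloured by call, with the list median as a bar and the median of all genes as a dashed line. Cdkn1a, at 0.74, is the only coloured point among p53 and its 8 tested targets, and the 5 called regulators all lie below 0.

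Without light damage replicates 1 and 2, which leaves 3 light damage libraries, the 12 called genes named from these other lists all kept their direction, and 0 kept an adjusted p under 0.05, with edgeR adjusted p of 0.0534 to 0.229. Most log2 fold changes stayed close to their size. They were -0.37 for Ep300, -0.33 for Mdm4, -0.35 for Ppp1r13l, -0.22 for Trp53bp1, -0.45 for Ccna2, -0.55 for Cenpa, 0.56 for Ccne1, 0.26 for Pcna and 0.23 for Ak1. Over all genes that comparison called 0.782% higher and 1.55% lower, against 5.32% and 7.85% with every library. The part of the 2 libraries in these differences was otherwise not tested. Larger moves were those of Ephx1, to 0.37, Fdxr, to -0.23, and Crebbp, to -0.22. Some adjusted p values lay near the threshold. Of the 10 fits with 1 library removed, 8 took Fdxr past it, with log2 fold changes over the 10 fits of -0.37 to -0.26. The same happened in 5 fits for Pcna (0.19 to 0.27), in 4 for Crebbp (-0.34 to -0.23), in 3 for Ephx1 (0.50 to 0.70), in 2 for Cenpa (-0.73 to -0.55), and in 1 each for Ccne1 (0.49 to 0.62) and Trp53bp1 (-0.26 to -0.21). The highest edgeR adjusted p among these was 0.0891, for Fdxr without light damage replicate 2.

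Genes whose levels over the 10 libraries were most like that of Cdkn1a were sought by Pearson correlation of log2 CPM, which includes the difference between the groups and is given as a measure of likeness. Amigo2, a cell adhesion protein of neurons, came first with r = 0.98, followed by Cbln2, a secreted organiser of synapses, with 0.97, then Baiap2, Lamp5 and Tspan33, each with 0.95. After removing group means, these values were 0.93 for Amigo2, 0.88 for Cbln2, 0.77 for Baiap2, 0.90 for Lamp5 and 0.89 for Tspan33. The 5 genes were the highest of 13507 compared on these same libraries, so the choice itself raises both sets of values. Neither set gives separate support for a link with Cdkn1a. Amigo2 had 109, 112, 120, 115 and 111 CPM in light damage replicates 1 to 5, and 93.7, 94.2, 98.1, 85.0 and 93.7 CPM in control replicates 1 to 5, highest in replicate 3 of each group, like Cdkn1a. Least like it were Tob2, an antiproliferative protein, with r = -0.97, and Trip10, also with -0.97. Tob2 averaged 227 ± 13.4 CPM in light damage, against 280 ± 20.2 CPM in control (SD, n = 5 each). None of these genes belongs to the lists above.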

How the data were processed

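Retinal RNA was measured as counts, deposited by the authors as whole numbers for each gene. RSEM 1.3.1, Bowtie2, DESeq2 1.4.5 and the build GRCm39 are named, without roles, per the submitters' processing notes. The sources used here do not state whether those counts are rounded estimates, how shared reads were divided or whether strand was used. All per-sample columns were used. Symbols came from GENCODE M21 (GRCm38) by Ensembl identifier, with 19892 of 19999 matched, and length is the union of exons there. Genes were kept by filterByExpr (16852), scaled by TMM and compared with edgeR 4.0.16 (quasi-likelihood, robust dispersion) in R 4.3.3, with a term for group and p-values adjusted by Benjamini-Hochberg over every tested gene. The standard error comes from the F statistic. log2 CPM used a prior count of 2. Alternatives were DESeq2 1.42.0, limma-voom (limma 3.58.1), other scalings and filters, a replicate block, and libraries left out. The steps were tested on simulated data. No pair of libraries held identical values.

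Members, lists and alternatives were chosen with earlier results of these data known. The genes named are the 10 members; of each other list, all called genes up to 6, or the 2 with the lowest p where none was called; and the 5 genes most and 3 least like Cdkn1a among those with a symbol and a mean of at least 1 CPM. One gene that this rule names is not reported here. Further names are marked as chosen later. Fits with marker sums as covariates were chosen after seeing the data.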

Additional observations from a re-analysis of the deposited data

Results flagged for a closer look

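Single libraries far from the rest of their group were sought in 20 sets of 5 values, the 10 genes in both groups, and 2 were found; chance gives about 1 in 20 sets. Mdm2 had 70.5 CPM in light damage replicate 1, below the other 4 light damage libraries, with a gap of 0.741 of the group's range. The coefficient of variation of Mdm2 in that group was 0.931%, where the sampling of reads alone gives 2.73%. Sesn2 had 29.5 CPM in control replicate 1, above the other 4 controls, with a gap of 0.720 of the range; its coefficient of variation there was 6.32%, where read sampling gives 4.78%.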

How the results depend on the processing

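Cdkn1a was the one gene called of the 9 tested, and none was lower, in every fit run except that with the amacrine marker sum as covariate, where 0 were higher. Leaving out single libraries gave 1 to 1 member higher and 0 to 0 lower, 1 to 3 other p53 targets higher and 0 to 1 lower, and 399 to 1347 genes higher and 723 to 1644 lower overall. More than 1.5 times fewer genes were higher without light damage replicates 1 (440), 2 (481) or 3 (399) or control replicate 5 (590), and more without control replicate 1 (1347). Fewer were lower without light damage replicates 1 (723), 2 (825) or 3 (728) or control replicate 5 (865). Without light damage replicates 1 and 2, 135 genes were higher and 268 lower, and 0 other targets rose and 0 fell. With the amacrine covariate 0 genes were higher and 3 lower, with 0 other targets in either direction. With the replicate block, 1431 genes were higher and 1854 lower, and 4 other targets rose and 2 fell. The block changed no call of the members or of the genes named by rule from the other lists. Genes named after their values were seen, and those most or least like Cdkn1a, are not covered by that statement. Same-numbered libraries deviated together with r between 0.052 and 0.32, above 0.1 in 1 of 5 numbers. The same-numbered control was the closest control for light damage replicates 3 and 4, but not for 1, 2 and 5. These small positive values cannot decide whether the replicate numbers pair the samples. DESeq2 called 3 other targets higher and 2 lower. Direction turned in a few fits of genes that were not called: Mdm2 gave 0.021 with library totals alone, 0.0035 without a filter, 4.72e-07 without the high-Xist libraries and -0.023 to 0.035 without single libraries; Bax gave -0.018 to 0.073 without single libraries; Aen gave -0.0012 with the rod covariate; Trp53 gave 0.13 with the amacrine covariate. The causes were not tested. Depth limits Eda2r, with at most 14 counts in a library.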

Other observations

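Perp, Ccnd2 and Ccnd1 had unequal libraries and did not pass; they were named after their values were seen. Perp, a membrane protein of p53-dependent apoptosis, had 8.05, 4.34, 2.98, 1.94 and 1.45 CPM in light damage replicates 1 to 5, against 1.22 to 1.79 CPM in control (log2 fold change 1.24, edgeR quasi-likelihood adjusted p = 0.0730). Ccnd2, cyclin D2, had 12.7, 10.5, 5.49, 3.16 and 2.34 CPM in light damage replicates 1 to 5, against 2.46 to 4.77 CPM in control. Both were highest in the libraries with most Xist and lens RNA. Ccnd1, cyclin D1, had between 21.1 and 27.0 CPM in light damage and 13.5, 16.7, 24.6, 11.5 and 16.4 CPM in control replicates 1 to 5, so the overlap came from control replicate 3 alone, the control library with most Cdkn1a (log2 fold change 0.53, edgeR quasi-likelihood adjusted p = 0.0590).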
